A study of Rattus norvegicus with 6 samples.

Results

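Fatty acid oxidation genes were examined in the testes of diabetic and normal rats. The list held 45 genes in 6 groups by role, and its members were the genes of the deposited table whose symbol equalled a symbol of the list. Of the 45 genes, 43 had a row among the 35291 genes of the table, and Acaa1a and Scp2 were not analysed here. No member symbol was carried by more than 1 row. The comparison used the 20338 genes whose FPKM averaged 0.5 or more over the 6 rats, and 41 of the 43 members passed this filter. The peroxisomal oxidase Acox2 and the uncoupling protein Ucp3 did not.

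RNA-Seq had been performed on testicular tissue of 3 rats with streptozotocin (STZ)-induced diabetes (DM) and 3 normal rats, all adult male Sprague-Dawley, which is an outbred strain. Diabetic rats were fed a high-fat diet for 1 month and were then injected intraperitoneally, once, with STZ at 35 mg/kg, a toxin of pancreatic beta cells. Controls were injected with citrate buffer, and testes were collected 8 weeks after the injection. The methods do not state which diet the controls ate, so diet and diabetes cannot be told apart here, and ages beyond adult were not given in the sources used here. Expression was deposited as FPKM, a fragment count divided by transcript length and library size, so levels of different genes can be set side by side. Rats are named diabetic 1 to 3 and normal 1 to 3, and the numbers do not link animals between the groups.

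How many reads each library held is unknown. Relative depth, estimated from the steps between low values, was 0.966 to 1.09 in the diabetic rats and 0.893 to 1.02 in the normal rats. Summed FPKM ranged from 461428 to 464969 and from 453304 to 478211. The tissue label was checked against marker genes. Spermatid markers summed to between 11867 and 14112 FPKM in the 6 rats, and Sertoli cell markers to between 261 and 324 FPKM. The extraction text of the labels speaks of adipose tissue. The adipocyte genes Plin1 and Lep reached at most 0.357 FPKM and 0.155 FPKM in any rat, while Adipoq was at 3.04 to 5.25 FPKM. Of the other adipocyte genes, Cidec was at 1.64 to 2.86 FPKM, Cfd at 0.583 to 2.96 FPKM and Fabp4 at 0.221 to 0.910 FPKM. The epididymal genes Defb1 and Lcn8 were listed at 0 in all 6 rats, and Lcn5, Crisp1 and Cst11 reached at most 0.116 FPKM. In whole tissue, fewer cells of a type and less RNA per cell cannot be told apart, and this holds for every value below.

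Fatty acids enter cells with the help of the translocase CD36, are carried by fatty acid binding proteins and are activated to acyl-CoA by long-chain acyl-CoA synthetases. The carnitine shuttle (CPT1, the carrier SLC25A20 and CPT2) moves the acyl group into mitochondria, where dehydrogenation, hydration, a second dehydrogenation and thiolysis shorten the chain by acetyl-CoA at each round. Very long and branched chains are shortened first in peroxisomes, and nuclear receptors of the PPAR family with their PGC-1 coactivators switch on many of these genes. In the testis, Leydig cells and Sertoli cells store and burn lipid, and developing germ cells and sperm carry their own forms of several of the enzymes.

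Promoters of the members are shown for the genes around which the comparison turns. Cd36 and Echs1 had the largest differences of the uptake genes and of the mitochondrial enzymes, Acsl5 had the smallest p-value, and Hadha was among the most abundant members and had a log2 fold change close to 0. In the deposited table these are ENSRNOG00000040108, ENSRNOG00000047565, ENSRNOG00000016265 and ENSRNOG00000024629. The 250 bases before the annotated start are given 5′ to 3′ on the strand of the gene, from RefSeq with the assembly GRCr8. Capitals mark motifs by their letters alone, wherever they lie in the window. TATAAA is the sequence of the TATA box, and GGGCGG is that of the GC box bound by Sp1. AGGTCA is that of the element of nuclear receptors, PPARs among them. Both strands were searched, so that CCGCCC and TTTATA are GGGCGG and TATAAA on the opposite strand.
Cd36, chr4:18246332-18246581, plus strand: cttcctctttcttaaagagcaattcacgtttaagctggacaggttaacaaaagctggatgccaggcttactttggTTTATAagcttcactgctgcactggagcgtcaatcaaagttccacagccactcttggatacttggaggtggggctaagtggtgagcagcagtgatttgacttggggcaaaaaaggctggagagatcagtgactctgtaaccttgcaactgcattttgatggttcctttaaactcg
Acsl5, chr1:264294601-264294850, plus strand: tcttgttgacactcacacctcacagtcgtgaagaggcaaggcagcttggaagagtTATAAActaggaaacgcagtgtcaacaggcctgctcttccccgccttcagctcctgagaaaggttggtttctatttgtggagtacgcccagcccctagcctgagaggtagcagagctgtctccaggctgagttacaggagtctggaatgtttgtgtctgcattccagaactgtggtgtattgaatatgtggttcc
Echs1, chr1:204333507-204333756, minus strand: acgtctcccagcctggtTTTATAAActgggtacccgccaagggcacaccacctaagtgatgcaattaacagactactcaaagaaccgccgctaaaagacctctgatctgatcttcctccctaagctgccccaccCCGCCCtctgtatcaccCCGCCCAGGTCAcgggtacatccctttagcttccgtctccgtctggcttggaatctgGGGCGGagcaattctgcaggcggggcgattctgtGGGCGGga
Hadha, chr6:31907551-31907800, plus strand: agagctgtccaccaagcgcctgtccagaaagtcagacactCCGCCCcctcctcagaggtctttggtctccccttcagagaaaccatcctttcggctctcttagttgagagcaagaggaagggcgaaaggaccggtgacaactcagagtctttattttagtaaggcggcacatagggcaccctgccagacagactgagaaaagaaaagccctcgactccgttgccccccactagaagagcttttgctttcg

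Cd36 and Acsl5 each held a TATAAA and no GC box, and their windows had a G+C content of 45.6% and 50.4%. Echs1 held 4 GC boxes, of which 1 adjoined the AGGTCA, and its TATAAA matches on the 2 strands overlapped. Hadha had a single GC box and neither of the other motifs. Hadhb, which encodes the beta subunit of the same protein, starts 301 bases away on the opposite strand, so that both genes share most of this region. Over all 38 windows available for 37 of the 45 genes, AGGTCA occurred in 6 (15.8%) against 14.1% of all 33469 windows, and TATAAA occurred in 3 (7.89%) against 12.9%. GGGCGG occurred in 21 (55.3%) against 30.5% of all windows. No share was counted for the windows of protein-coding genes alone. A direct repeat of AGGTCA with 1 base between the copies, the form bound by PPARs, was in 0.0508% of all windows and in 0 of the 38. The members with TATAAA were Cd36, Acsl5 and Echs1, all shown above. Of 10 members with a window that were lower in diabetic testes at an unadjusted p-value below 0.05 in limma, 3 held TATAAA. Of these 10, 2 held AGGTCA and 5 held GGGCGG. The window of Fabp3, not shown, held none of these motifs. A match of letters is a description and was not tested for binding. No window was given for Ppard, Fabp5, Fabp9, Cpt1b, Cpt1c, Acadl, Decr1 and Acaa2.

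The members covered a wide range of levels in the testis. Fabp9, the fatty acid binding protein of spermatids and sperm, was the most abundant at a mean of 1131 FPKM, and it was followed by the carnitine acetyltransferase Crat at 591 FPKM and the synthetase Acsl1 at 227 FPKM. Both subunits of the mitochondrial trifunctional protein (Hadhb at 158 FPKM and Hadha at 122 FPKM), the muscle-type Cpt1b at 129.8 FPKM and Cpt2 at 57.8 FPKM completed the 7 members above 50 FPKM. At the low end of the members tested were Ehhadh at 0.508 FPKM and Ppargc1a at 0.521 FPKM. In 3 families a single form made up most of the summed level. Cpt1b held between 89.7% and 91.5% of the summed Cpt1 FPKM in the 6 rats, Fabp9 between 95.3% and 97.4% of the 3 Fabp genes, and Acsl1 between 71.3% and 77.1% of the 4 Acsl genes. Among the acyl-CoA dehydrogenases no form did, with Acadvl at 35.3% to 44.1% and Acadl at 36.3% to 43.8% of the sum of Acadvl, Acadl, Acadm and Acads.

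**Figure D1:**
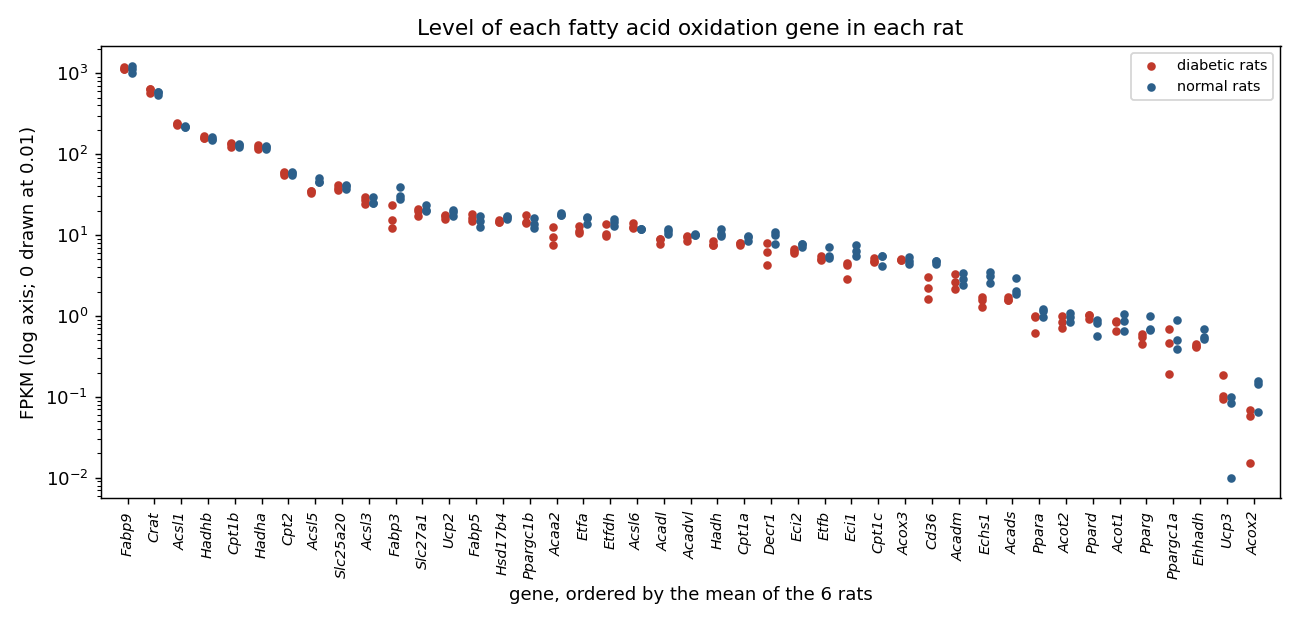
Level of each of the 43 members in each rat, in FPKM on a log axis, ordered by the mean of the 6 rats, with diabetic rats in red and normal rats in blue (a value of 0 is drawn at 0.01). Levels ran from 1131 FPKM for Fabp9 on average to at most 0.186 FPKM for Ucp3 and Acox2, and the red points lay below the blue ones mainly among members under 50 FPKM.

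Diabetic and normal testes were compared to ask whether the expression of these genes differed between them. Of the 41 members tested, 13 were lower in diabetic testes at an unadjusted p-value below 0.05 (31.7% of the members, against 4.99% of all genes tested that were lower at this level). At the same level 0 members were higher, against 2.47% of all genes. In a fit of protein-coding genes alone, 14 members were lower, against 6.61% of the genes in that fit. The members were chosen with earlier results of these data known, so these shares are given as a description. No member passed an adjusted p-value below 0.05 in limma, which 0.0344% of all genes did, and the lowest adjusted p-value was 0.190 for Acsl5. The differences of single members are therefore given as values and not as calls. The 13 genes were Cd36, Fabp3 and Acsl5 of uptake and activation, Cpt1a of the carnitine shuttle, and Acadl, Hadh, Echs1, Eci1, Eci2, Decr1, Etfa, Etfdh and Acaa2 of mitochondrial oxidation. A log2 fold change beyond 1 in either direction, combined with an unadjusted p-value below 0.05, was reached by 1 member (Cd36) and by 1.24% of all genes.

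Values of the groups did not overlap, with all diabetic rats lower, for 16 of the 41 members (39.0%, against 8.42% of all genes). All diabetic rats were higher for 3 members, Ppard, Acsl1 and Acsl6 (7.32%, against 4.56% of all genes). The log2 fold changes (diabetic minus normal, on log2(FPKM + 0.1), which understates the change of low genes) ran from -1.03 to 0.38. They were below 0 for 29 members and above 0 for 12, with a median of -0.16, while over all genes tested the median was -0.021 and 55.6% lay below 0. The values by role are given as a description, since several roles held few genes and roles were not tested against each other. The median was -0.39 over the 15 mitochondrial members, of which 9 were lower at an unadjusted p-value below 0.05, and it was -0.027 over the 6 members of the carnitine shuttle, of which 1 was. It was 0.022 over the 9 members of uptake and activation, 3 of which were lower. In the other roles 0 members were lower at this level, but the medians were below 0 there too. They were -0.36 over the 5 regulators, -0.16 over the 3 peroxisomal members tested and -0.16 over the 3 thioesterases and uncoupling proteins tested.

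**Figure D2:**
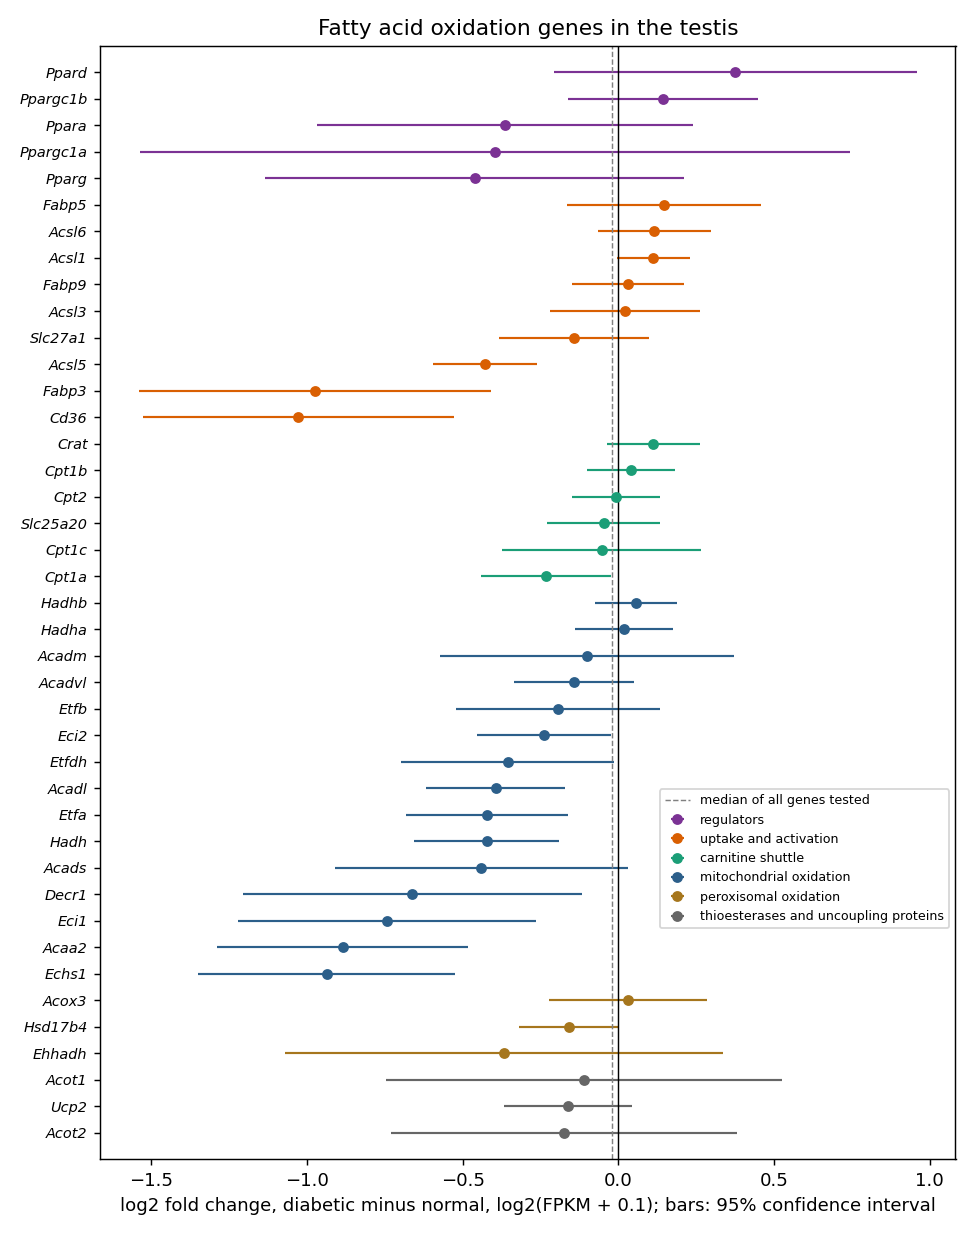
Log2 fold change (diabetic minus normal) of the 41 members tested, by role, with the 95% confidence interval from limma as bars and the median of all genes tested (-0.021) as a dashed line. Cd36, Fabp3, Echs1 and Acaa2 lie farthest below 0, at -1.03, -0.97, -0.94 and -0.89, while the intervals of Cpt1b, Cpt2, Hadha and Hadhb lie around 0.

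Differences also varied with the level of the gene. Over the 7 members above 50 FPKM (a limit chosen after the values were seen), log2 fold changes lay between -0.0075 and 0.11, and 0 were lower at an unadjusted p-value below 0.05. Over the 34 members below this level the median was -0.24, and all 13 lower genes were among them. Spearman's rho between the mean FPKM and the log2 fold change was 0.41 over the 41 members, which share the same 6 libraries, and is given as a description.

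All regulators but Ppargc1b were at low levels, and none of the 5 differed at an unadjusted p-value below 0.05. Ppara, the receptor for fatty acids that drives oxidation genes in liver, was at 0.611, 0.999 and 0.969 FPKM in diabetic rats 1 to 3 versus 0.974, 1.23 and 1.15 FPKM in normal rats 1 to 3. The groups overlapped through diabetic 2, giving a log2 fold change of -0.36 (standard error, SE, 0.26). Ppargc1a, which encodes the coactivator PGC-1α, was at 0.685, 0.190 and 0.468 FPKM in diabetic testes versus 0.884, 0.392 and 0.510 FPKM in normal testes. Its spread within each group exceeded the difference between them (log2 fold change -0.40, SE 0.48), and without diabetic 2 the value was 0.0046. Its relative Ppargc1b was far more abundant, 12.3 to 17.6 FPKM over the 6 rats, and the groups overlapped.

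Pparg, known as the receptor of fat cells, was at 0.554, 0.607 and 0.454 FPKM in diabetic testes versus 0.994, 0.687 and 0.677 FPKM in normal testes. Ppard, the widely expressed PPAR, was at 0.921, 1.04 and 1.03 FPKM in diabetic testes versus 0.887, 0.807 and 0.572 FPKM in normal testes. For both genes the groups did not overlap, in opposite directions. The log2 fold changes were -0.46 (SE 0.29) for Pparg and 0.38 (SE 0.25) for Ppard, with adjusted p-values from limma of 0.805 and 0.821.

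Of the genes of uptake and activation, Cd36 and Fabp3 showed the largest differences. Cd36, which encodes the translocase that takes up long-chain fatty acids, was at 2.24, 1.63 and 3.003 FPKM in diabetic rats 1 to 3 versus 4.37, 4.81 and 4.74 FPKM in normal rats 1 to 3. Every diabetic rat lay below every normal rat, and the mean of 2.29 ± 0.689 FPKM (SD, n = 3) was 0.494 of the normal mean of 4.64 ± 0.239 FPKM (SD, n = 3). The log2 fold change was -1.03 (SE 0.21), with an unadjusted p-value of 0.00175 and an adjusted p-value of 0.322 in limma. Fabp3, the heart-type carrier of fatty acids in the cytosol, was at 15.5, 12.1 and 23.3 FPKM in diabetic testes versus 27.6, 39.3 and 30.7 FPKM in normal testes. The groups did not overlap, although diabetic 3 came near normal 1, and the log2 fold change was -0.97 (SE 0.24, adjusted p = 0.427 from limma).

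Acsl5, a synthetase of the endoplasmic reticulum and mitochondria, had a smaller difference with little spread. It was at 35.3, 33.5 and 35.5 FPKM in diabetic testes versus 45.1, 50.9 and 44.7 FPKM in normal testes, a log2 fold change of -0.43 (SE 0.071, unadjusted p = 0.00046 and adjusted p = 0.190 from limma). The more abundant Acsl1, at 242, 235 and 231 FPKM in diabetic testes and 217, 224 and 213 FPKM in the controls, was higher in all diabetic rats (log2 fold change 0.11, SE 0.050, adjusted p = 0.682 from limma). Acsl6, at 12.3, 13.97 and 12.5 FPKM against 11.9, 11.96 and 11.9 FPKM, also lay higher without overlap (log2 fold change 0.12, SE 0.077). Acsl5 took 10.8% to 11.5% of the summed Acsl FPKM in diabetic testes and 14.9% to 16.3% in the normal rats. Acsl1 took 74.9% to 77.1% and 71.3% to 72.5%.

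Fabp9 was at 1119, 1123 and 1185 FPKM in diabetic testes versus 1012, 1139 and 1210.4 FPKM in normal testes. The groups overlapped, and the 95% confidence interval of its log2 fold change of 0.031 was -0.15 to 0.21, and that of Fabp3 was -1.54 to -0.41. The ratio of Fabp9 to Fabp3 was 50.8 to 93.1 in diabetic testes and 29.0 to 39.5 in normal testes. The remaining members of this role, Fabp5, Acsl3 and the transporter Slc27a1, overlapped between the groups, with log2 fold changes of -0.14 to 0.15.

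The carnitine shuttle showed few differences. Cpt1b, the rate-limiting step of entry into mitochondria in muscle, was at 137, 134 and 124 FPKM in diabetic testes versus 129, 132 and 123 FPKM in normal testes, with a log2 fold change of 0.040 (95% confidence interval -0.10 to 0.18). Cpt2, which forms acyl-CoA again on the inner membrane, was at 59.9, 58.2 and 55.0 FPKM against 58.7, 59.7 and 55.6 FPKM (log2 fold change -0.0075, 95% confidence interval -0.15 to 0.13). Both genes overlapped between the groups, and the interval of Acsl5 was -0.59 to -0.26. Cpt1a, the liver-type enzyme and the minor form here, was at 7.98, 7.52 and 7.94 FPKM in diabetic testes versus 8.42, 9.74 and 9.48 FPKM in normal testes. It was lower without overlap (log2 fold change -0.23, SE 0.089, unadjusted p = 0.0343 and adjusted p = 0.649 from limma). The ratio of Cpt1b to Cpt1a was 15.6 to 17.8 in the diabetic rats and 13.0 to 15.3 in the normal rats. Crat, Slc25a20 and the brain-type Cpt1c had log2 fold changes between -0.054 and 0.11, and each overlapped between the groups.

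Mitochondrial oxidation held most of the lower genes. The first dehydrogenation is shared by acyl-CoA dehydrogenases of different chain length. Acadl, the long-chain enzyme, was at 8.96, 7.77 and 8.81 FPKM in diabetic testes versus 10.4, 12 and 11.2 FPKM in normal testes, lower without overlap (log2 fold change -0.39, SE 0.095, unadjusted p = 0.00397 and adjusted p = 0.415 from limma). Acadm, the medium-chain enzyme, was at 2.17, 2.61 and 3.34 FPKM against 2.83, 3.42 and 2.43 FPKM. Its groups overlapped widely (log2 fold change -0.10, 95% confidence interval -0.57 to 0.37), and the interval includes the value of Acadl. The short-chain Acads, at 1.73, 1.60 and 1.57 FPKM against 2.05, 2.95 and 1.87 FPKM, and the very-long-chain Acadvl, at 9.61, 9.46 and 8.47 FPKM against 10.2, 10.0 and 10.1 FPKM, lay lower without overlap. Their log2 fold changes were -0.44 (SE 0.20) and -0.14 (SE 0.082), with unadjusted p-values of 0.0625 and 0.127 in limma.

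Electrons of this step pass through the electron transfer flavoprotein (Etfa and Etfb) and its dehydrogenase Etfdh. Etfa was at 10.6, 11.3 and 12.8 FPKM in diabetic testes versus 16.4, 16.5 and 13.6 FPKM in normal testes, lower without overlap (log2 fold change -0.42, SE 0.11, unadjusted p = 0.0062 and adjusted p = 0.441 from limma). Etfdh was at 9.72, 10.2 and 13.8 FPKM against 12.9, 15.6 and 14.4 FPKM, and diabetic 3 overlapped the normal rats (log2 fold change -0.36, SE 0.15). The partner subunit Etfb, between 4.86 and 7.13 FPKM, had a log2 fold change of -0.19 and overlapping groups.

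The later steps are carried out for long chains by the trifunctional protein and for shorter chains by the soluble enzymes Echs1, Hadh and Acaa2. Hadha, the alpha subunit of the former, was at 130.3, 123 and 115 FPKM in diabetic testes versus 125, 123 and 115 FPKM in normal testes, with a log2 fold change of 0.019 (95% confidence interval -0.14 to 0.18). Hadhb had a log2 fold change of 0.057 (95% confidence interval -0.075 to 0.19), and the ratio of Hadhb to Hadha stayed between 1.204 and 1.46 in the 6 rats. The values of both subunits overlapped between the groups.

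Each of the 3 soluble enzymes was lower without overlap. Echs1, the enoyl-CoA hydratase, was at 1.71, 1.31 and 1.59 FPKM in diabetic testes versus 2.57, 3.45 and 3.08 FPKM in normal testes. Its diabetic mean of 1.54 ± 0.208 FPKM (SD, n = 3) was 0.506 of the normal mean of 3.04 ± 0.441 FPKM (SD, n = 3), a log2 fold change of -0.94 (SE 0.18, unadjusted p = 0.000981 and adjusted p = 0.273 from limma). Acaa2, the thiolase that releases acetyl-CoA, was at 9.35, 7.63 and 12.7 FPKM in diabetic testes versus 17.6, 18.7 and 17.6 FPKM in normal testes. The normal rats lay close together and the diabetic rats were spread below them, with a log2 fold change of -0.89 (SE 0.17, unadjusted p = 0.0012 and adjusted p = 0.279 from limma). Hadh, the short-chain 3-hydroxyacyl-CoA dehydrogenase, was at 7.62, 7.59 and 8.41 FPKM against 9.73, 11.8 and 10.3 FPKM (log2 fold change -0.42, SE 0.099, adjusted p = 0.404 from limma). The ratio of Hadha to Echs1, which catalyse the same hydration, was 71.8 to 94.4 in the diabetic rats and 35.5 to 48.7 in the normal rats.

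Eci1, Eci2 and Decr1, auxiliary enzymes that handle the double bonds of unsaturated fatty acids, were also lower at an unadjusted p-value below 0.05. The isomerase Eci1 was at 4.27, 4.54 and 2.83 FPKM in diabetic testes versus 6.36, 7.57 and 5.53 FPKM in normal testes, with no overlap and the lowest value in diabetic 3 (log2 fold change -0.74, SE 0.20, unadjusted p = 0.00771 and adjusted p = 0.485 from limma). Eci2 was at 6.02, 6.28 and 6.71 FPKM against 7.03, 7.69 and 7.78 FPKM, also without overlap (log2 fold change -0.24, SE 0.091). The reductase Decr1 was at 6.11, 4.24 and 7.91 FPKM against 7.74, 10.8 and 9.92 FPKM. Diabetic 3 lay above normal 1 for this gene (log2 fold change -0.66, SE 0.23, unadjusted p = 0.0236 and adjusted p = 0.603 from limma). Further enzymes of this kind outside the members, Ech1 and Decr2, overlapped between the groups, with log2 fold changes of 0.17 and 0.21. The peroxisomal reductase Pecr overlapped too, with a log2 fold change of 0.0095.

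**Figure D3:**
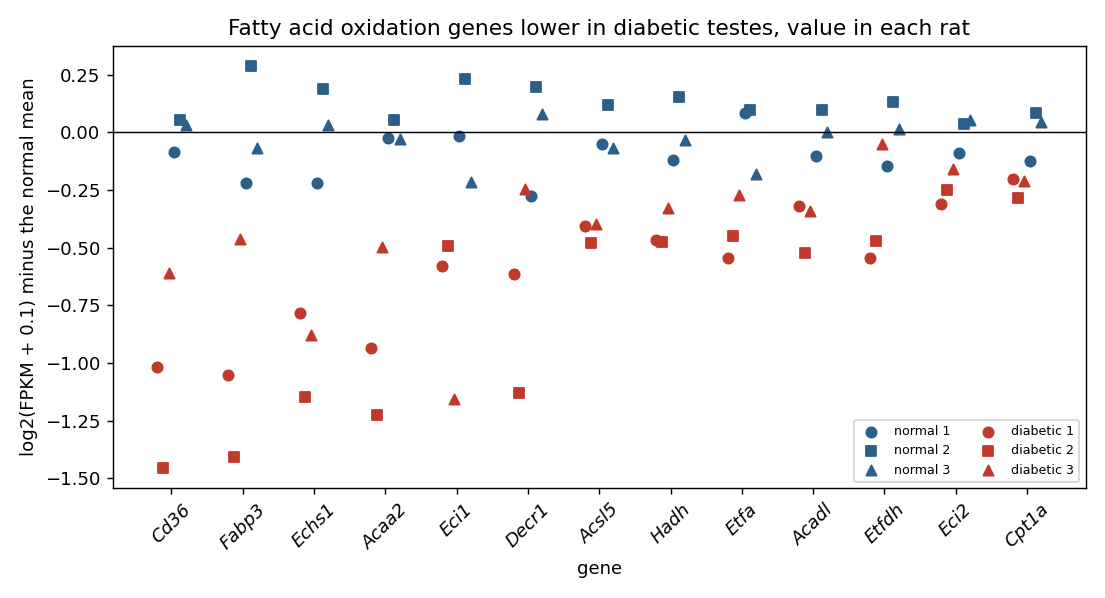
Value of each rat for the 13 members lower at an unadjusted p-value below 0.05, as log2(FPKM + 0.1) minus the mean of the normal rats, with diabetic rats in red, normal rats in blue and a marker for each animal. Diabetic 2 is the lowest rat for 9 of the 13 genes and normal 2 the highest for 12, and red and blue overlap only for Decr1 and Etfdh.

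In fits that each left out 1 rat, the unadjusted p-value stayed below 0.05 in all 6 fits for 9 of the 13 genes (Cd36, Fabp3, Acsl5, Acadl, Hadh, Echs1, Eci1, Etfa and Acaa2). The other 4 lost it in some fits. For Cpt1a the p-values of these fits were 0.0183 to 0.111 and it was kept only without normal 1, and for Eci2 they were 0.0308 to 0.0995 and it was kept without diabetic 3 or normal 1. For Etfdh they were 0.00298 to 0.137, with the same rats as for Eci2, and for Decr1 they were 0.00567 to 0.0786, lost without diabetic 2, normal 2 or normal 3. The number of lower members was 9 without diabetic 2 (3.93% of all genes were lower in that fit) and 9 without normal 2 (3.25% of all genes).

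None of the 3 peroxisomal members tested differed at an unadjusted p-value below 0.05, but the values of 2 (Ehhadh and Hsd17b4) were lower without overlap. Ehhadh, the bifunctional enzyme and a classical PPARα target, was at 0.408, 0.427 and 0.453 FPKM in diabetic testes versus 0.546, 0.691 and 0.523 FPKM in normal testes, lower without overlap at a level near the filter (log2 fold change -0.37, SE 0.30, adjusted p = 0.859 from limma). Hsd17b4, which carries out the same steps for branched chains, was at 14.7, 15.2 and 14.6 FPKM against 17.1, 16.9 and 15.8 FPKM, lower without overlap (log2 fold change -0.16, SE 0.068, unadjusted p = 0.0519 and adjusted p = 0.671 from limma). The oxidase Acox3 had a log2 fold change of 0.032 with overlapping groups, and Acox2 lay between 0.0152 and 0.158 FPKM. The uncoupling protein Ucp2 was at 15.9 to 20.6 FPKM over the 6 rats with overlapping groups, and Ucp3 lay between 0 and 0.186 FPKM. The thioesterases Acot1 and Acot2 had log2 fold changes of -0.11 and -0.17 with SE of 0.27 and 0.24. They are close paralogs, and reads shared by them may have been assigned to either gene.

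A wider list of 74 genes of fatty acid handling outside the members was examined beside them. Of 73 with a row, 67 were tested, and 11 were lower at an unadjusted p-value below 0.05 (16.4%, beside 4.99% of all genes) while 0 were higher. The median log2 fold change was -0.076, and none passed an adjusted p-value below 0.05. The count was 5 without diabetic 2 and 7 without normal 2. The 6 genes with the lowest p-values were Cat, Slc27a3, Acsbg1, Phyh, Ivd and Got2. Cat, the peroxisomal catalase, was at 2.41, 2.24 and 2.34 FPKM in diabetic testes versus 4.07, 4.14 and 3.65 FPKM in normal testes, far apart for the spread within each group (log2 fold change -0.74, SE 0.12, adjusted p = 0.190 from limma). Acsbg1, an acyl-CoA synthetase of the bubblegum family known from brain, adrenal gland and testis, was at 45.5, 44.8 and 46.9 FPKM against 62.0, 71.7 and 56.3 FPKM (log2 fold change -0.46, SE 0.091, adjusted p = 0.282 from limma). The transporter Slc27a3 had a log2 fold change of -0.63, the peroxisomal phytanoyl-CoA hydroxylase Phyh -0.45, the leucine catabolic dehydrogenase Ivd -0.38 and the mitochondrial aminotransferase Got2 -0.31, and the groups did not overlap for any of these.

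By role, the lower genes were 3 of 10 of other uptake and activation, 3 of 16 of other mitochondrial oxidation, 3 of 18 of other peroxisomal oxidation, 1 of 11 of lipolysis and malonyl-CoA control and 1 of 12 of other regulators and PPAR targets. Medians were -0.049 for other uptake and activation, -0.11 for other mitochondrial oxidation and -0.15 for other peroxisomal oxidation. Other regulators and PPAR targets had a median of 0.016. The lipolysis list had a median of 0.054. Its 1 lower gene was Plin2, with overlapping groups (log2 fold change -0.26, SE 0.10, unadjusted p = 0.0379 from limma). Of its lipases, Mgll (monoacylglycerol lipase) was at 207 to 244 FPKM and Lipe (hormone-sensitive lipase) at 73.4 to 86.6 FPKM over the 6 rats. Pnpla2 was at 23.7 to 29.1 FPKM, and none of these lipases was lower at an unadjusted p-value below 0.05. The lipase Lpl was below the filter and lay lower in every diabetic rat. Lipe lay higher in all diabetic rats (log2 fold change 0.13, SE 0.059, adjusted p = 0.690 from limma).

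Markers of some other cell types were lower beside these genes. All 5 Leydig cell markers measured (Cyp11a1, Cyp17a1, Insl3, Lhcgr and Star) were lower in diabetic testes, with log2 fold changes of -1.62 to -0.999 and an adjusted p-value below 0.05 in limma for Cyp17a1 alone. Their summed level was 40.3, 26.8 and 55.4 FPKM in diabetic rats 1 to 3 and 101, 115 and 81.6 FPKM in normal rats 1 to 3, and no Leydig marker was at 0. The order of the diabetic rats by this sum, from diabetic 2 through diabetic 1 to diabetic 3, was also that of 6 of the 13 lower members (Cd36, Fabp3, Acsl5, Hadh, Decr1 and Acaa2). Of the 5 Leydig markers, 3 had this order (Cyp11a1, Cyp17a1 and Star), while Insl3 and Lhcgr had others. The remaining lower members had other orders. In 3 of them diabetic 1 was lowest and diabetic 3 highest, in 3 diabetic 2 was lowest and diabetic 1 highest, and in 1 diabetic 3 was lowest. The share of all genes with the order of the sum was not counted. Macrophage markers were lower at an unadjusted p-value below 0.05 for 2 of 5 (Cd68 and Csf1r), with sums of 25.6 to 30.8 FPKM in the diabetic and 30.4 to 31.9 FPKM in the normal rats. Of 3 adipocyte markers tested, 1 was lower (Cfd), with sums of the whole list of 6.27 to 8.40 and 8.72 to 11.1 FPKM. Among endothelial markers 0 of 3 tested differed at this level, with sums of 5.39 to 6.05 and 5.83 to 7.09 FPKM, and among peritubular and smooth muscle markers 0 of 5 did. The part of other cell types in the differences of the fatty acid oxidation genes was not tested.

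Few germ cell and Sertoli cell markers differed. None of 8 Sertoli cell markers and 0 of 8 spermatid markers differed at an unadjusted p-value below 0.05. Of 6 spermatogonial markers 1 was lower (Kit), and of 7 spermatocyte markers 1 was higher (Ccna1). Spermatid sums were 11867 to 14112 FPKM in the normal and 12362 to 13815 FPKM in the diabetic rats.

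**Figure D4:**
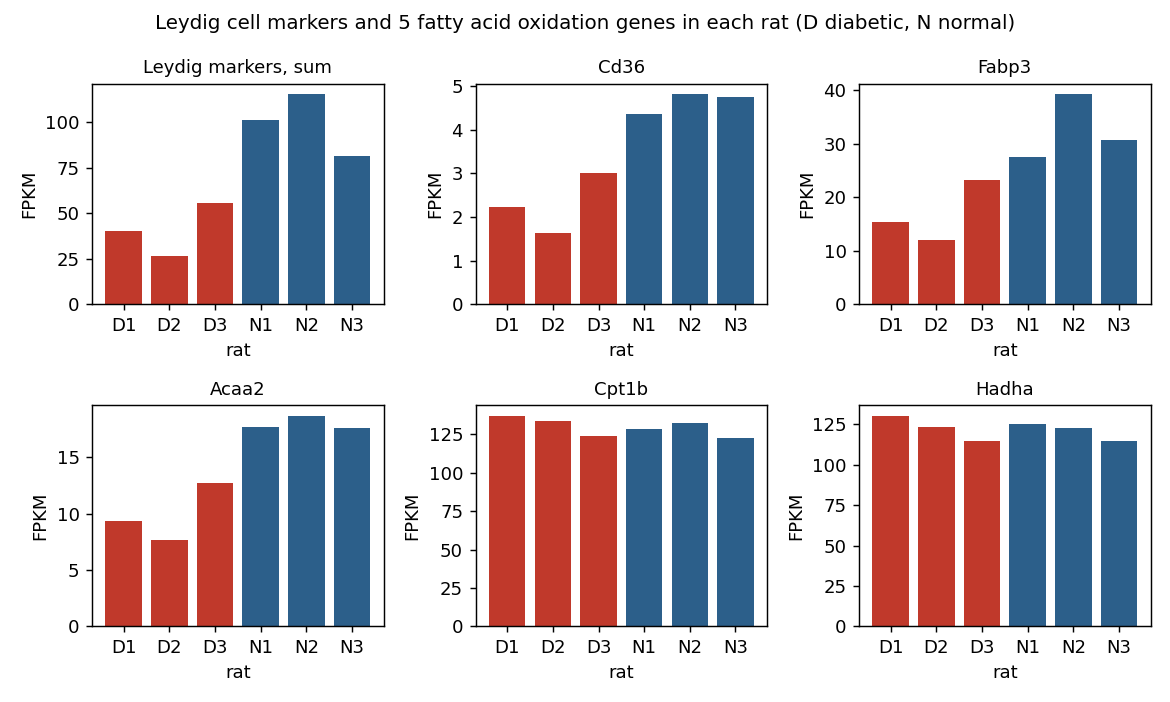
Summed FPKM of the 5 Leydig cell markers and FPKM of 5 members in each rat (D diabetic in red, N normal in blue, axes from 0). The Leydig sum, Cd36, Fabp3 and Acaa2 lie lower in all 3 diabetic rats, with diabetic 2 lowest and diabetic 3 highest of them, whereas Cpt1b (123 to 137 FPKM) and Hadha (115 to 130.3 FPKM) overlap between the groups. Other lower members, such as Echs1, Eci1 and Etfa, are not shown and order the diabetic rats otherwise.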

How the data were processed

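RNA-Seq of testis from 3 diabetic and 3 normal rats was used, with groups taken from the sample labels. The labels number the samples of a group without naming animals, so p-values measure the spread between these samples, which may in part be technical. The small RNA libraries were not analysed here. The authors ran FastQC on the reads, matched them to rRNA with BWA, aligned them with STAR, assembled transcripts with StringTie and screened transcripts with DESeq2. Versions, genome build and strandedness are not given in the sources used here. The deposited values are FPKM per gene as the authors calculated them.

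FPKM were transformed to log2(FPKM + 0.1), and genes averaging 0.5 FPKM or more were kept. Groups were compared over 20338 genes with limma 3.58.1 in R 4.3.3 (eBayes with a mean-variance trend). Tests were two-sided, with p-values adjusted over all genes by Benjamini-Hochberg and no term for replicate number. An exact permutation test of 3 rats against 3 cannot give a p-value below 0.1, so none is printed. The steps were tested on simulated data.

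Members and lists were chosen with earlier results of these data known. Genes described individually are members with an unadjusted p-value below 0.05 or groups that do not overlap, the anchors Ppara, Ppargc1a, Cd36, Fabp9, Cpt1a, Cpt1b, Cpt2, Acadm, Hadha and Ehhadh, and the 6 genes of the wider list with the lowest p-values. Other genes, such as Hadhb, Lipe and Mgll, were named after their values were seen. Promoters came from RefSeq (GRCr8), the symbols of which matched 17294 of the 35291 genes. Other settings tried were pseudocounts of 0.01 and 1, filters at 0 and at 1 FPKM, TPM, scaling by median ratios, robust eBayes and eBayes with no trend, a block for replicate number, only protein-coding genes, summed symbols and leaving out each rat.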

Additional observations from a re-analysis of the deposited data

How the results depend on the processing

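No member passed an adjusted p-value below 0.05 in limma under any alternative run. The number of members lower at an unadjusted p-value below 0.05 (13) was between 10 and 14 with all rats. With a rat left out it was 9 to 13. The 10 came from median-ratio scaling, where 4.01% of all genes were lower. Among the fits with 14 was that with no trend, where 5.60% of all genes were lower. The number lower without overlap (16) was 14 to 16 with all rats and 16 to 21 with a rat left out. The 14 came from the filter at 1 FPKM, where 34 members were tested. Leaving out a rat can only keep or raise such a count, and the share of all genes was not counted for it. Past an absolute log2 fold change of 1, the count of 1 became 0 with a pseudocount of 1 and with median-ratio scaling, where Cd36 was smaller, and was 0 to 3 with a rat left out. Members higher at an unadjusted p-value below 0.05 (0) were 1 after rescaling to TPM (against 2.38% of all genes). They were 1 after median-ratio scaling (against 3.56%), with Acsl1 in both, and 0 to 1 with a rat left out. Members higher without overlap (3) were 5 after median-ratio scaling and 3 to 5 with a rat left out, where the share of all genes was not counted either. The median of -0.16 was -0.24 to -0.14 and the count of other pathway genes (11) was 5 to 13 with a rat left out. Apart from the effect of the filter and of leaving out a rat on the counts without overlap, the causes of these shifts were not tested. Median-ratio scaling moved the median of all genes from -0.021 to 0.0079 and that of the members from -0.16 to -0.13.

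Among the 28 members described individually, the sign of the log2 fold change turned for 5. Cpt2 was 0.022 after median-ratio scaling, and with a rat left out it ranged from -0.038 to 0.026, Acadm from -0.26 to 0.042, Hadha from -0.025 to 0.068, Ppargc1a from -0.71 to 0.0046 and Fabp9 from -0.040 to 0.088. With protein-coding genes alone, limma gave adjusted p-values of 0.0581 for Acsl5, 0.061 for Echs1, 0.0637 for Acaa2 and 0.0748 for Cd36.

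The same replicate numbers label different rats in the 2 groups, so the numbers were not taken as pairing. The correlations of same-numbered deviations were 0.106, 0.0153 and 0.0979, and those of differently numbered samples were -0.126 to 0.0318. Whether same-numbered samples were handled together is unknown. With the replicate number as a block, 12 members were lower at an unadjusted p-value below 0.05, against 5.15% of all genes. At the same level 1 member (Crat) was higher, against 2.97% of all genes, and 0 passed the adjustment. Reads per gene are unknown, so the precision of low genes rests on the spread between 3 rats.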

Other observations

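Some genes next to the pathway were picked out after their values were seen and are given as values. Lpl, the lipoprotein lipase that frees fatty acids from circulating triglycerides, was below the filter and was not tested. It was at 0.151, 0.153 and 0.171 FPKM in diabetic testes versus 0.378, 0.359 and 0.388 FPKM in normal testes, with no overlap. Fabp4, the carrier of fat cells and capillary endothelium, was also below the filter, at 0.338, 0.221 and 0.307 FPKM versus 0.910, 0.694 and 0.496 FPKM, again lower in every diabetic rat. Of the other adipocyte markers below the filter, Plin1 overlapped between the groups. Lep lay higher in every diabetic rat, at 0.155, 0.142 and 0.146 FPKM versus 0.049, 0.077 and 0.027 FPKM. Among all genes tested, 8.42% were lower and 4.56% higher without overlap, and no such share was counted for genes below the filter, such as these.

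Pdk4, the kinase that turns off pyruvate dehydrogenase and a PPAR target, was at 0.956, 0.779 and 0.751 FPKM in diabetic testes versus 1.30, 1.64 and 1.08 FPKM in normal testes. Its log2 fold change was -0.62 (SE 0.23, unadjusted p = 0.0321 and adjusted p = 0.636 from limma). Crot, which exports shortened chains from peroxisomes as carnitine esters, was at 19.99, 12.8 and 21.9 FPKM versus 22.2, 25.98 and 23.8 FPKM, with diabetic 2 well below the others (log2 fold change -0.43, SE 0.19, adjusted p = 0.689 from limma).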
